A study of Mus musculus with 15 samples.

Results

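Immunoglobulin variable (V) segments were followed in RNA-Seq of mouse conjunctiva, the mucosa that lines the eyelids and covers the white of the eye. The members were chosen by symbol and count: every gene whose symbol starts with Ighv, Igkv or Iglv and that reached at least 10 counts in at least 3 of the 15 libraries. This selected 41 of the 348 V segments in the deposited table of 55487 genes, namely 16 of 185 heavy-chain, 24 of 160 kappa and 1 of 3 lambda segments. Because the counts chose the members, their levels and totals are given as descriptions, and tests were run for single segments only, across all genes.

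The mice were wild-type females of strain BALB/c (spelled BALC/c in the labels), 9 to 12 weeks old. All of them, controls included, had been sensitized in the skin with MC903, a vitamin D analog that inflames the skin, and ovalbumin (OVA), a model antigen. The 3 groups, of 5 libraries each, differed in what was dropped into the eyes daily from day 18 to day 24 and in the antibody given: PBS with no antibody named (PBS group), OVA with an isotype control antibody (isotype group), and OVA with an antibody against the IL-4 receptor α chain (anti–IL-4Rα group). Both antibodies were dosed at 25 mg/kg on days 10, 14, 18 and 21. The PBS group therefore differed from the isotype group in the challenge and also in the antibody, and no unsensitized group was analysed here. The labels name each library after a mouse, so the spread between libraries was taken as that between mice. Libraries held 48622195 to 87744970 counts.

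A developing B cell joins a single V segment to shorter diversity or joining segments, and the joined exon encodes the part of the antibody chain that binds antigen. The choice is inherited by daughter cells, so V segment counts in a tissue reflect the B cells and plasma cells that contribute antibody mRNA. Counts per segment do not tell single clones apart. Each antibody carries a heavy chain and a light chain, the latter either kappa or lambda, and plasma cells, the antibody-secreting end stage, hold far more of these transcripts than resting B cells. The constant region that follows the V exon sets the class, such as IgM, IgG1, IgA or IgE.

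On the GRCm38 assembly, the heavy-chain V segments lay on chromosome 12 between positions 113572927 and 116010093, the kappa segments on chromosome 6 between 67555497 and 70704177, and the lambda segments on chromosome 16 between 19085017 and 19260859. The 5 segments below, 2 of the heavy chain and 3 kappa, held the highest mean shares of their chain's member counts over the 15 libraries, and they are shown because the dominance results turn on them. Each line is the variable exon, or its last 300 bases, read 5′ to 3′ from the transcript models of GENCODE M21 on GRCm38, and all 5 lie on the minus strand. Capitals mark bases that differ from the closest other V segment of the same chain.
Igkv6-32: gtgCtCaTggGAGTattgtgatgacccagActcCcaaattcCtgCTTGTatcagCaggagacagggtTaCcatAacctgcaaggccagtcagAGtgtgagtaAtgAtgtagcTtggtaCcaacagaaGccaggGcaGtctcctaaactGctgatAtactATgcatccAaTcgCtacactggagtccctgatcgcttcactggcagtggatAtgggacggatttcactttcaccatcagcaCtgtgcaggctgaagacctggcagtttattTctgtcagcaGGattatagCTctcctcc
Ighv1-14: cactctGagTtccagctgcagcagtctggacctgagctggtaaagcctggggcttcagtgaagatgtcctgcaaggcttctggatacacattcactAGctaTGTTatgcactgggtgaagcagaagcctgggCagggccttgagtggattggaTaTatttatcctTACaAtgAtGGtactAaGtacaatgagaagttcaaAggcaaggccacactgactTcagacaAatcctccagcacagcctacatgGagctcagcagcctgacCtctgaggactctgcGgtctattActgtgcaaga
Igkv4-50: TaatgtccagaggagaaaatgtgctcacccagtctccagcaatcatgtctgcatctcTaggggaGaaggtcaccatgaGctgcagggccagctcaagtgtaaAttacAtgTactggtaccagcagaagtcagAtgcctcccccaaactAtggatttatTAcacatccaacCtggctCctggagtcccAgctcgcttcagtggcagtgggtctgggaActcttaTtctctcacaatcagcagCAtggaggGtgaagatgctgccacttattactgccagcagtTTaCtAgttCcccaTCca
Igkv4-61: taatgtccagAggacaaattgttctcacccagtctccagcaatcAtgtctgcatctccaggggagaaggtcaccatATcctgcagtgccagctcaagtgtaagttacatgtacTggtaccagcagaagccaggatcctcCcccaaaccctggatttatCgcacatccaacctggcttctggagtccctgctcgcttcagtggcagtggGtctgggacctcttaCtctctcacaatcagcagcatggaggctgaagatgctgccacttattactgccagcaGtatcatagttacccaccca
Ighv8-12: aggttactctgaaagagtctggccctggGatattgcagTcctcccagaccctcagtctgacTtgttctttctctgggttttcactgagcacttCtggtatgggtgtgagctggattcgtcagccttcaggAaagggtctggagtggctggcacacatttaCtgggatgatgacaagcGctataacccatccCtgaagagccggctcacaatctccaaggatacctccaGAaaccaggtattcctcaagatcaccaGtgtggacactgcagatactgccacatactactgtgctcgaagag
The coordinates were chr6:70074024-70074321 for Igkv6-32 (ENSMUSG00000076576), chr12:114646572-114646871 for Ighv1-14 (ENSMUSG00000104422), chr6:69700767-69701066 for Igkv4-50 (ENSMUSG00000076562), chr6:69416893-69417192 for Igkv4-61 (ENSMUSG00000076552) and chr12:115647945-115648244 for Ighv8-12 (ENSMUSG00000076731). Igkv6-32 stood apart most, with 42 of 298 bases differing from Igkv6-17, while Igkv4-61 differed from Igkv4-54 at 10 bases and Ighv8-12 from Ighv8-13 at 11. Ighv1-14 is annotated as a V pseudogene, the only such member beside 40 annotated as V genes; its exon held no stop codon in 1 of its reading frames, as in the other 4 exons printed.

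The Igkv4 family supplied the most kappa members, 7 of its 33 segments. The exons of these 7 were 88.1% to 94.7% identical over their 21 pairs. The 90 bases below, as long as a sequencing read, are the ungapped stretch of their alignment with the most variable positions, 23 in all. Capitals mark bases that differ from the commonest base among the 7.
Igkv4-50: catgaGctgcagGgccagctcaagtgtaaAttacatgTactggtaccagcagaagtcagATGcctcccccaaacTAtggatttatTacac
Igkv4-55: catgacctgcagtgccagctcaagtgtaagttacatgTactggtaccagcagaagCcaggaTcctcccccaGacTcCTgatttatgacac
Igkv4-59: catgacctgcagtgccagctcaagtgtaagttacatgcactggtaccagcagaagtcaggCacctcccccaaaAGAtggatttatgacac
Igkv4-61: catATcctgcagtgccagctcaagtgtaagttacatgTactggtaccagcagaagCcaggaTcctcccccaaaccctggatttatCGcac
Igkv4-63: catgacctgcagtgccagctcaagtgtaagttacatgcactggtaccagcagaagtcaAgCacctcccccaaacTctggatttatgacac
Igkv4-72: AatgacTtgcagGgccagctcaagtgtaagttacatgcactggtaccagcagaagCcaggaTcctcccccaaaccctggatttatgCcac
Igkv4-86: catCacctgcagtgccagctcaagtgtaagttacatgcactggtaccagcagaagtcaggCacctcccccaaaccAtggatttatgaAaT
These stretches lay on the minus strand of GRCm38 at chr6:69700904-69700993 (Igkv4-50), chr6:69607412-69607501 (Igkv4-55), chr6:69438355-69438444 (Igkv4-59), chr6:69417030-69417119 (Igkv4-61), chr6:69378081-69378170 (Igkv4-63), chr6:69226991-69227080 (Igkv4-72) and chr6:68910545-68910634 (Igkv4-86). Igkv4-63 departed from the commonest bases at 3 positions and Igkv4-50 at 10.

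Read pairs had been mapped uniquely to the reference genome, which derives from C57BL/6 and not from BALB/c mice. Across the 41 members, identity to the closest other V exon ranged from 75.2% (Igkv16-104) to 98.3% (Igkv6-20), with a median of 95.6%. In 18 members, every stretch of 90 bases occurred in no other V transcript. For 23 members, some stretches were shared, and for Igkv6-20 only 42.7% of them were its own. Counts of Igkv6-20, Igkv3-10, Igkv4-59 and Igkv4-61, for which the unique part was 42.7%, 73.7%, 71.3% and 74.4%, are therefore the least certain as to segment; how strain differences moved single counts was not tested.

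V segment RNA was scarce in the PBS group and abundant in both OVA-challenged groups. Summed over the 41 members, normalised counts (CPM, counts scaled to a common library size) were 2.38, 1.42, 1.54, 0.724 and 0.624 in the PBS libraries (replicates 1 to 5). They were 29.7, 16.8, 16.5, 89.5 and 114 CPM in the isotype libraries and 40.9, 66.3, 641, 29.4 and 65.7 CPM in the anti–IL-4Rα libraries. The lowest isotype library was 6.91 times the highest PBS library, and the lowest anti–IL-4Rα library 12.4 times. The OVA-challenged groups overlapped: their medians were 29.7 and 65.7 CPM, and that of the isotype group was 53.2 CPM without its replicate 1 and 59.6 CPM without replicate 2 or 3. In the other group, replicate 3, at 641 CPM, stood far above the next highest library of its group, at 66.3 CPM. The anti–IL-4Rα mean was 169 CPM ± 265 (SD, n = 5) with that library and 50.6 CPM without it, against 53.3 CPM ± 45.4 (SD, n = 5) in the isotype group and 1.34 CPM ± 0.712 (SD, n = 5) in the PBS group. In bulk tissue, more cells of a type and more RNA per cell cannot be told apart.

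**Figure D1:**
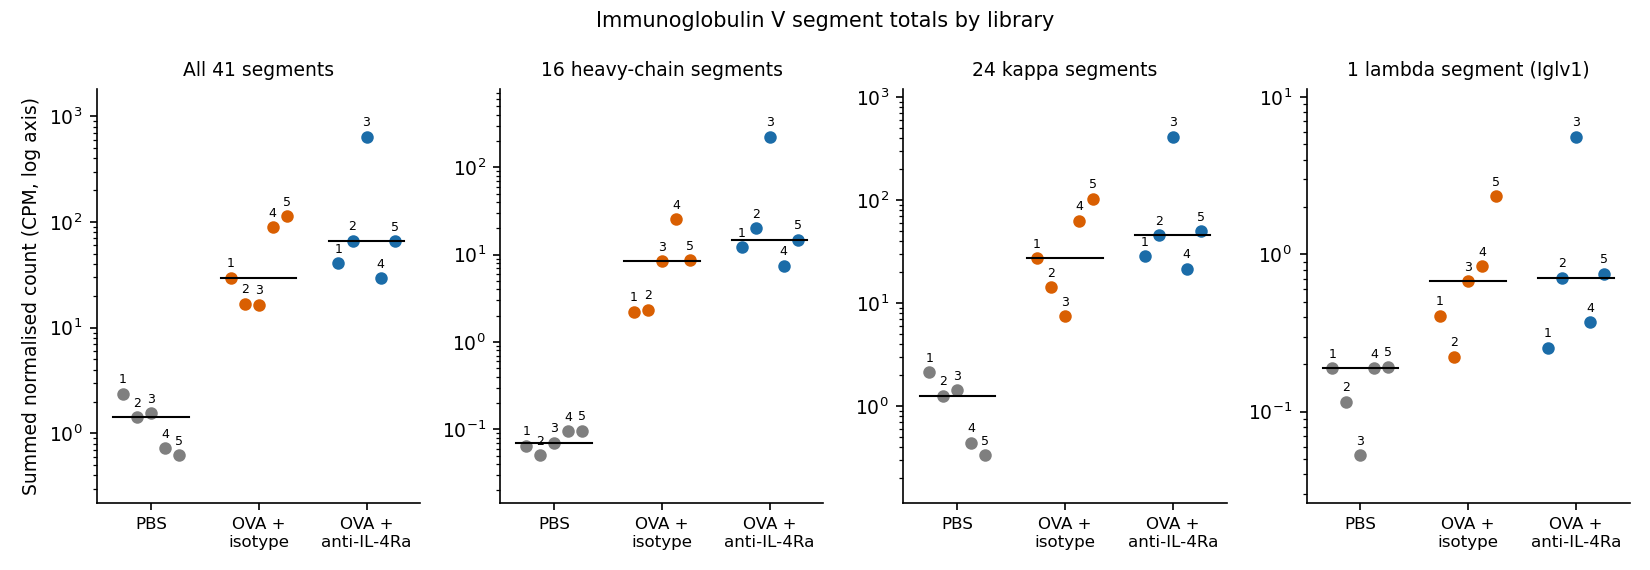
Summed normalised counts (CPM, log axes) of the 41 member V segments and of their heavy-chain, kappa and lambda parts in the PBS, isotype and anti–IL-4Rα groups, 5 libraries each. Points are libraries with their replicate numbers and bars are group medians; every OVA-challenged library lies above every PBS library, and anti–IL-4Rα replicate 3 is highest in each panel.

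Each chain showed this split. Heavy-chain members summed to between 0.0509 and 0.0966 CPM in the PBS group, 2.22 to 25.4 in the isotype group and 7.5 to 223 in the anti–IL-4Rα group. Kappa members, the bulk of the signal, ran from 0.334 to 2.13, from 7.41 to 103 and from 21.6 to 412 CPM in the same order. The single lambda member, Iglv1, differed least, at 0.0531 to 0.193 CPM in the PBS group against 0.223 to 2.35 and 0.256 to 5.58. By edgeR no comparison of Iglv1 was called: its log2 fold changes were 2.55 ± 0.91 (SE) for isotype against PBS, 0.81 ± 0.78 for anti–IL-4Rα against isotype and 3.36 ± 0.91 for anti–IL-4Rα against PBS, with adjusted p = 0.0676, 0.484 and 0.0542. The comparisons with PBS lay near the threshold: DESeq2 called both (adjusted p = 0.0087 and 0.00124), and limma voom called that of isotype (0.0259). So did edgeR without anti–IL-4Rα replicate 3 (0.0149), and that of anti–IL-4Rα was called without isotype replicate 2 or 5 (0.0455 and 0.0475). Lambda made up 2.65% to 17.6% of all light-chain V counts in the PBS libraries, 1.23% to 3.04% in the isotype libraries and 0.850% to 1.69% in the anti–IL-4Rα libraries. The PBS shares rest on 4 to 19 lambda counts a library. The other lambda segments, Iglv2 and Iglv3, reached 45 and 22 counts, both in anti–IL-4Rα replicate 3.

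Counting all 348 segments instead of the members gave the same split, with 1.56 to 3.56, 19.4 to 129 and 35.4 to 664 CPM in the PBS, isotype and anti–IL-4Rα groups. The members held only 8.05% to 35.7% of the heavy-chain V counts in the PBS libraries, against 60.3% to 91.4% and 52.4% to 97.0% in the OVA-challenged groups. The difference follows from the rule, since 10 counts in at least 3 libraries could seldom be met by the PBS libraries. In the table, 139 segments had no count in any library, and 112 reached 10 counts in some library. Of these, 46 did so in a single library and 25 in exactly 2, and so were not members.

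V totals were set beside the constant regions, which the rule did not use and which are counted as separate genes of the same transcripts. Igkc, the kappa constant region, was at 9.21, 4.78, 6.33, 2.87 and 2.41 CPM in the PBS libraries, 64.2, 39.3, 47.2, 146 and 281 CPM in the isotype libraries, and 79.1, 168, 887, 76.9 and 184 CPM in the anti–IL-4Rα libraries. Against PBS its log2 fold change was 4.49 ± 0.83 in the isotype group and 5.76 ± 0.88 in the anti–IL-4Rα group (edgeR adjusted p = 0.00433 and 0.00928), and 1.27 ± 0.72 for anti–IL-4Rα against isotype (adjusted p = 0.230). All kappa V segments together held 27.0 to 41 counts per 100 Igkc counts in the PBS group, 39.8 to 50.1 in the isotype group and 33.5 to 48.7 in the anti–IL-4Rα group. Igkc thus ranged from 2.41 to 887 CPM while this ratio stayed between 27.0 and 50.1, lowest in PBS replicate 1.

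**Figure D2:**
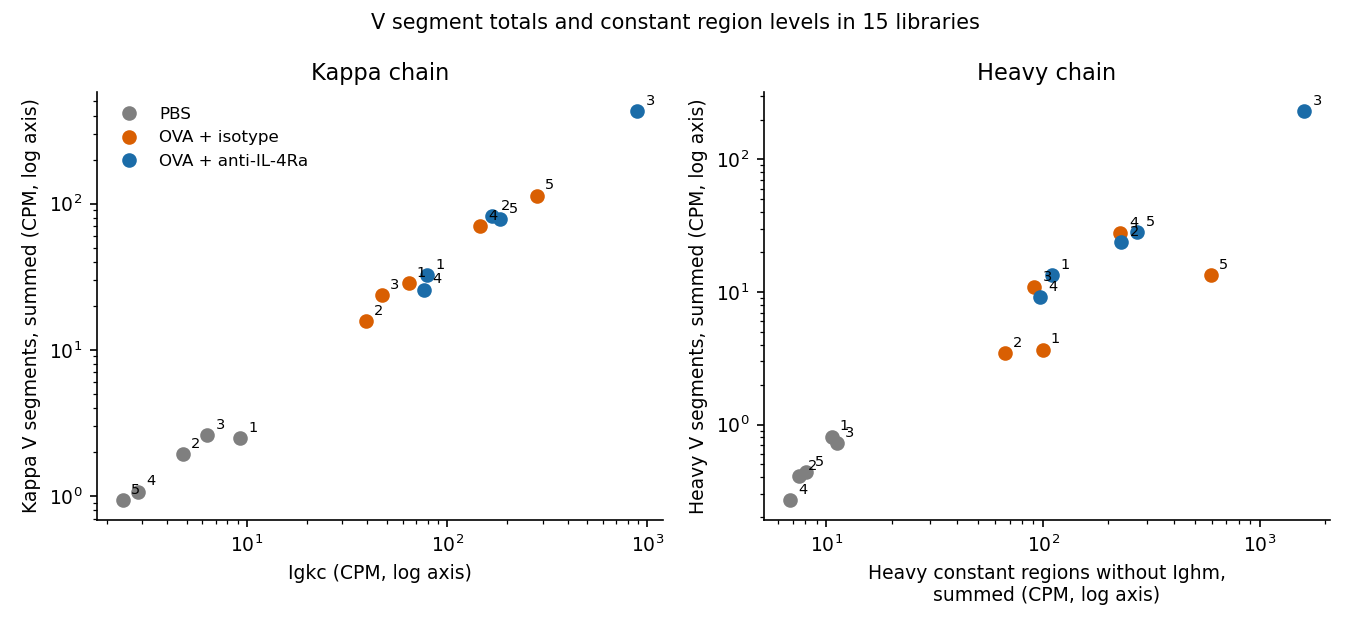
Summed CPM of all kappa V segments against Igkc (left) and of all heavy-chain V segments against the summed heavy constant regions without Ighm (right), both axes logarithmic. Each point is a library with its replicate number, colored by group; kappa V and Igkc rise together across the 15 libraries, while isotype replicates 1, 2 and 5 hold fewer heavy-chain V counts than other OVA-challenged libraries at a like constant region level.

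The heavy chain was less even. Ighg1, the IgG1 constant region, was at 0.247 to 0.843 CPM in the PBS group, 48.2 to 536 in the isotype group and 29.5 to 1450.2 in the anti–IL-4Rα group, and rose in both comparisons with PBS (log2 fold change 8.55 ± 1.37 and 9.53 ± 1.42, edgeR adjusted p = 0.00216 and 0.00847). Ighm, the IgM constant region, was at 15.5 to 58.8 CPM in all libraries and passed no test. Heavy-chain V counts were then set against the heavy constant regions without Ighm and Ighd, the IgD constant region. Per 100 such counts, V counts were 4.91 to 8.58 in the PBS group, 2.26 to 12.3 in isotype and 9.45 to 14.4 in anti–IL-4Rα. The plot of heavy-chain V segments against the constant regions leaves out Ighm alone. Among OVA-challenged libraries the lowest values were those of isotype replicates 5, 1 and 2, at 2.26, 3.77 and 5.32. Reads of heavy-chain V exons in these 3 libraries were few relative to the constant regions; what kept them low was not tested.

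Among the other classes, Igha, the IgA constant region, was at 4.72 to 8.81 CPM in the PBS group. It was at 39.3, 14.3, 5.00, 39.5 and 47.1 CPM in the isotype libraries and at 78.1, 133, 145, 48.2 and 96.0 CPM in the anti–IL-4Rα libraries. The last 2 groups did not overlap, by a narrow margin, while isotype replicate 3 lay within the PBS range. Igha rose in all 3 comparisons, by 2.27 ± 0.49 for isotype against PBS, 1.79 ± 0.48 for anti–IL-4Rα against isotype and 4.05 ± 0.53 for anti–IL-4Rα against PBS on the log2 scale (edgeR adjusted p = 0.00942, 0.0273 and 0.00412). Anti–IL-4Rα replicates 1, 2, 4 and 5, but not replicate 3, also held more lacrimal gland RNA than all other libraries, as given below. Its part in the Igha level was not tested. Ighe, the IgE constant region, had no count in any PBS library. It was at 0.694 to 6.93 CPM in the isotype group and 0.0146 to 2.02 CPM in the anti–IL-4Rα group, where 4 of 5 libraries were at 0.0852 or less; the difference did not pass the test (log2 fold change −2.80 ± 1.18, edgeR adjusted p = 0.130). Of 12 constant regions, 10 were tested: 5 rose and 0 fell for isotype against PBS, 1 rose and 0 fell for anti–IL-4Rα against isotype, and 4 rose and 0 fell for anti–IL-4Rα against PBS. In the same order, 9.53%, 6.73% and 2.28% of all genes tested rose and 7.49%, 8.13% and 1.44% fell.

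Most members had the bulk of their counts in few libraries. In 24 of the 41 members, over 50% of all counts in the 15 libraries came from 1 library, and the median member had 55.3% of its counts there. No member was highest in a PBS library, 18 were highest in an isotype library and 23 in an anti–IL-4Rα library, of which 12 peaked in anti–IL-4Rα replicate 3. The rule made a peak in PBS unlikely, since few members reached 10 counts in any PBS library. Of the 71 segments at 10 counts in only 1 or 2 libraries, 5 were highest in a PBS library, 22 in an isotype library and 44 in an anti–IL-4Rα library. The extremes among members were Igkv6-32, with 97.2% of its counts in anti–IL-4Rα replicate 3, and Ighv8-8, with 22.4% in isotype replicate 4. Yet 36 members reached 10 counts in at least 1 library of each OVA-challenged group, 2 did so in the isotype group without any anti–IL-4Rα library and 3 the other way round. In the PBS group 8 members reached 10 counts in some library, and for 22 members no PBS library held more than 3 counts.

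**Figure D3:**
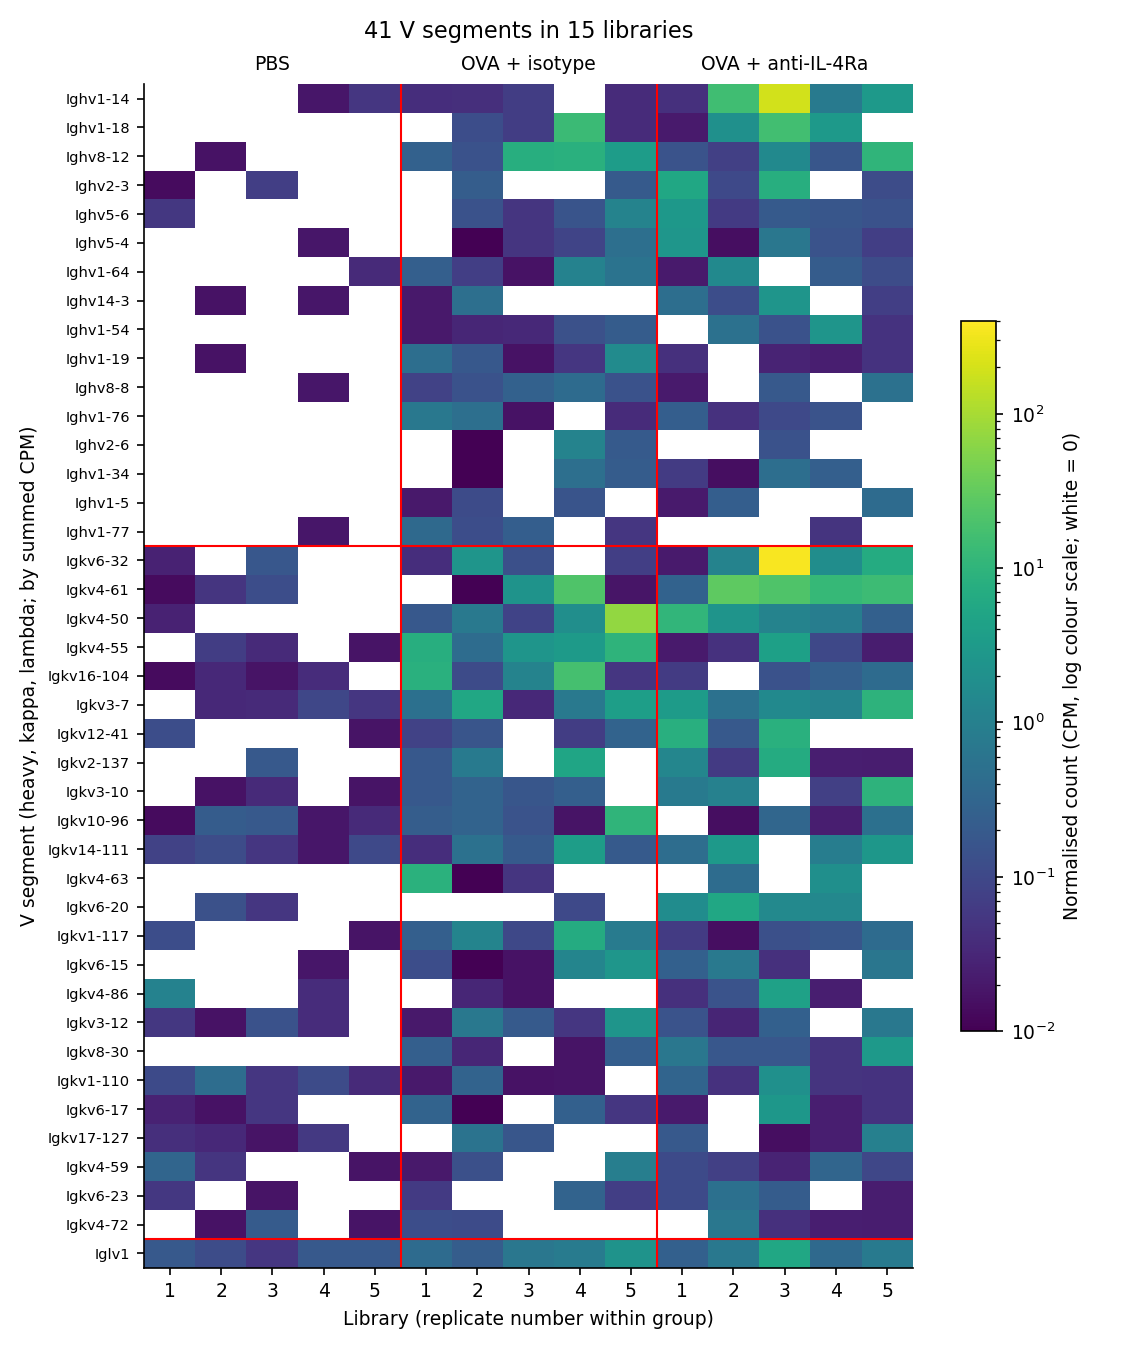
Normalised counts (CPM, log color scale, white for 0 counts) of the 41 member V segments in the 15 libraries, with red lines between chains and groups and segments ordered by summed CPM within their chain. The brightest cells are Ighv1-14 (193 CPM) and Igkv6-32 (357 CPM) in anti–IL-4Rα replicate 3 and Igkv4-50 (71.6 CPM) in isotype replicate 5, and most PBS cells are white.

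Dominant heavy-chain segments, as shares of all heavy-chain V counts of a library, showed how far single segments went. Ighv8-12 held 69.6% of 645 counts in isotype replicate 3 (95% Wilson interval 66.0% to 73.0%), 26.4% of 742 in isotype replicate 5 (23.4% to 29.7%) and 36.3% of 1197 in anti–IL-4Rα replicate 5 (33.7% to 39.1%). Ighv1-18 led in isotype replicate 4 with 48.5% of 1591 counts (46.0% to 50.9%) and in anti–IL-4Rα replicate 4 with 32.9% of 369 (28.5% to 38%). Ighv8-12 and Ighv1-18 thus each led in mice of both OVA-challenged groups. Ighv1-14 led in anti–IL-4Rα replicate 3, with 84.0% of 15799 counts (83.5% to 84.6%), and in replicate 2, with 64.2% of 1587 (61.8% to 66.5%). Ighv2-3 led in anti–IL-4Rα replicate 1 with 40.7% of 632 counts (36.9% to 44.5%), Ighv1-76 in isotype replicate 1 with 18.7% of 180 (13.8% to 25.2%) and Ighv14-3 in isotype replicate 2 with 13.8% of 340 (10.6% to 17.9%). The V exons of the members were 294 to 316 bases long, so shares within a chain were not corrected for length. In all, 6 segments, each of them a member, led the heavy chain in the 10 OVA-challenged libraries. These intervals, and those that follow, cover counting error only.

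Among kappa segments, Igkv6-32 held 83.6% of 29348 counts in anti–IL-4Rα replicate 3 (Wilson interval 83.1% to 84.0%) and Igkv4-50 held 63.3% of 6275 in isotype replicate 5 (62.1% to 64.4%). Igkv4-50 also led in anti–IL-4Rα replicate 1, with 32.8% of 1517 counts (30.5% to 35.2%). Igkv4-61 led in isotype replicate 4 with 31.3% of 4007 (29.9% to 32.8%) and in anti–IL-4Rα replicate 4 with 47.6% of 1045 (44.5% to 50.6%), and it was the leading member in anti–IL-4Rα replicates 2 and 5 as well. Igkv4-63 led in isotype replicate 1 with 29.9% of 1402 counts (27.5% to 32.3%), and Igkv3-7 in isotype replicate 2 with 34.7% of 1527 (32.3% to 37.1%). The remaining 3 libraries were led by segments outside the member rule, each with 10 or more counts in exactly 2 libraries. These were Igkv3-5 in isotype replicate 3 with 60.3% of 1405 counts (57.7% to 62.8%), Igkv1-135 in anti–IL-4Rα replicate 2 with 41.9% of 5446 (40.6% to 43.3%) and Igkv3-4 in anti–IL-4Rα replicate 5 with 23.4% of 3301 (21.9% to 24.8%). Igkv3-5 had 847 counts in its library and at most 30 in any other, and among the members alone Igkv4-55 led that library with 34.5% of 440 counts (30.3% to 39.1%).

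In the PBS libraries the counts were too few to name dominant heavy-chain segments with any precision. All heavy-chain V segments together held 59, 24, 41, 14 and 25 counts, and the leading one, Ighv4-2, Ighv4-1, Ighv2-9, Ighv1-86 and Ighv1-4 in turn, had 3 to 22 of them, none of these being a member. Kappa V counts were 181, 114, 147, 56 and 53. Igkv4-86 led in PBS replicate 1 with 44.2% (Wilson interval 37.2% to 51.5%) and Igkv1-110 in replicate 2 with 22.8% (16.1% to 31.3%), both members, and the non-members Igkv17-121, Igkv4-80 and Igkv8-24 led in replicates 3 to 5.

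Diversity was expressed as the effective number of segments, the number of equally used segments that would give the same Shannon entropy. Over all kappa segments it was 9.81, 16.1, 21.4, 14.8 and 11.2 in the PBS libraries, 6.25, 12.2, 5.09, 8.52 and 4.47 in the isotype libraries, and 9.35, 5.17, 2.41, 9.26 and 10.7 in the anti–IL-4Rα libraries. The PBS values were mostly above those of the OVA-challenged groups, with overlap, although they rest on 53 to 181 counts. Drawing each library down to 53 kappa counts, a step added after the values had been seen, gave 16.5 to 21.8 expected segments in the PBS group, 8.98 to 15.9 in the isotype group and 6.79 to 14.4 in the anti–IL-4Rα group. At equal counts the PBS libraries did not overlap with either OVA-challenged group, and the OVA-challenged groups overlapped with each other.

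**Figure D4:**
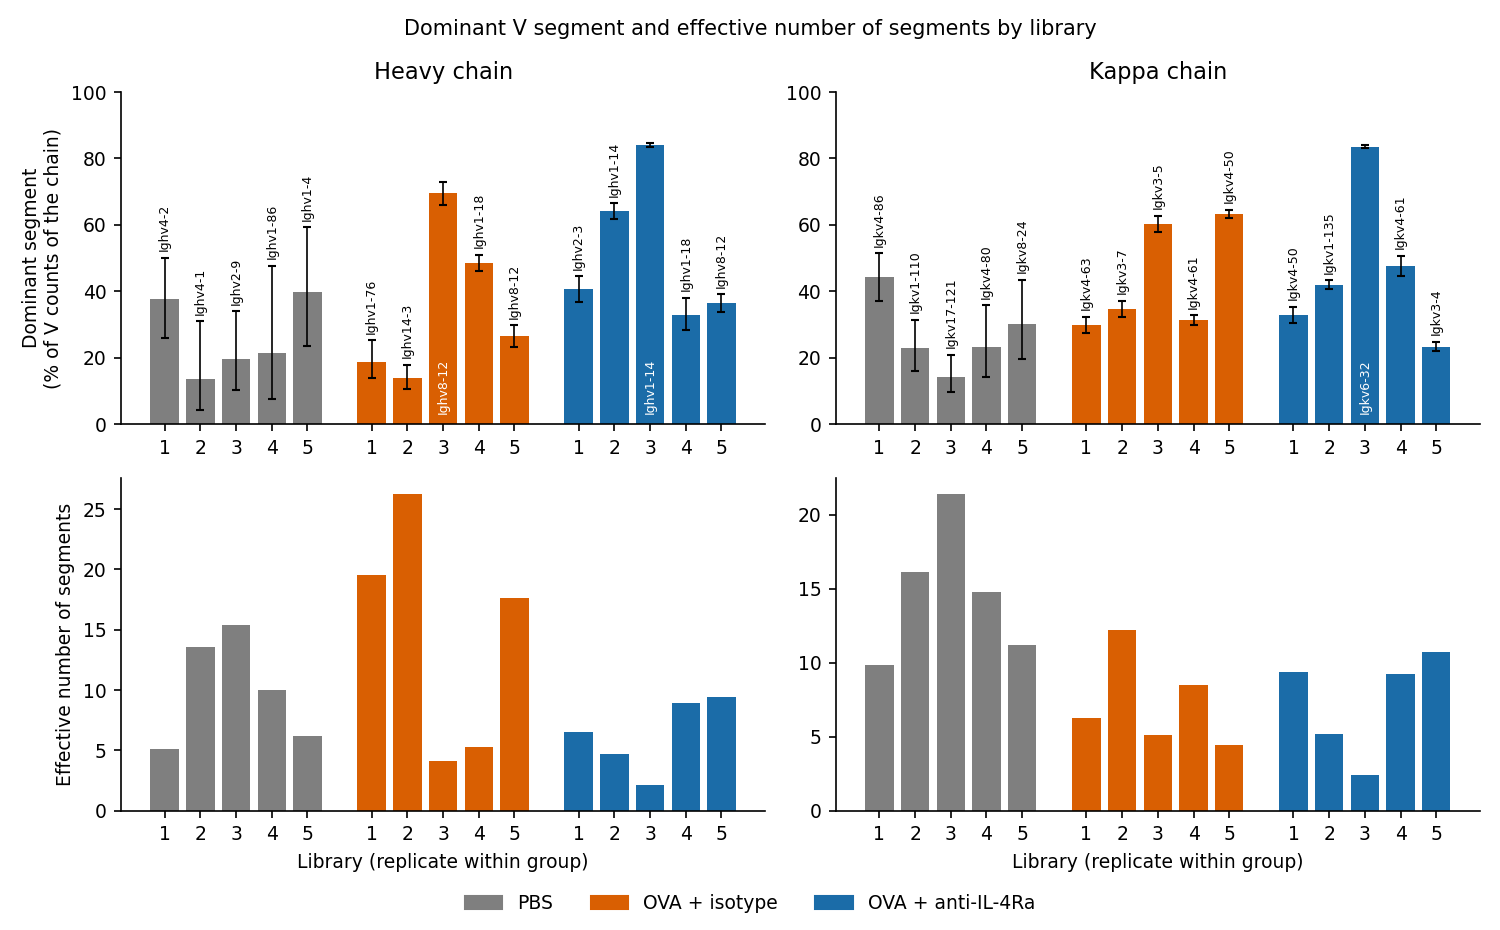
Share of the leading V segment in all V counts of the chain (top, bars with 95% Wilson intervals, segment named on the bar) and effective number of segments (bottom) for the heavy chain (left) and kappa (right) in 15 libraries, colored by group. The leading share is highest in anti–IL-4Rα replicate 3 for both chains, at 84.0% and 83.6%, where the effective numbers are 2.12 and 2.41.

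For the heavy chain, the effective number over all segments was 19.6, 26.2, 4.08, 5.32 and 17.6 in the isotype libraries and 6.55, 4.73, 2.12, 8.94 and 9.44 in the anti–IL-4Rα libraries. Isotype replicates 1, 2 and 5, which had the fewest heavy-chain V counts relative to the constant regions among OVA-challenged libraries, were the 3 most diverse. The PBS libraries lay between 5.15 and 15.4 on no more than 59 counts. At 14 counts per library, the expected number of heavy-chain segments was 4.94 to 11, 4.39 to 10.3 and 2.77 to 6.86 in the PBS, isotype and anti–IL-4Rα groups, and all 3 groups overlapped. The number of V segments with at least 10 counts was 1 to 5, 15 to 33 and 18 to 51, and the last range ended at 33 without anti–IL-4Rα replicate 3.

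Repertoires were compared between pairs of libraries by the share of V counts they had in common, the sum over segments of the smaller of both shares. The highest overlap for the heavy chain, 73.5%, was between anti–IL-4Rα replicates 2 and 3, both led by Ighv1-14. For kappa it was 52.5%, between anti–IL-4Rα replicates 2 and 4. Medians over pairs were 31.3% among isotype libraries, 12.9% among anti–IL-4Rα libraries and 12.9% between these groups for the heavy chain, and 16.8%, 17.8% and 13.6% for kappa. Pairs across groups reached 43.0% for kappa, between isotype replicate 4 and anti–IL-4Rα replicate 4, and 41.4% for the heavy chain, between isotype replicate 3 and anti–IL-4Rα replicate 5. A library enters many pairs, so the pairs are not independent. As means of the 15 within-library shares of member counts, in which PBS libraries weigh as much as the others although they held only 3 to 5.5 heavy-chain member counts, Ighv8-12 (19.3%), Ighv1-14 (18.2%), Ighv2-3 (12.2%), Ighv5-6 (8.5%) and Ighv1-18 (7.8%) came first in the heavy chain and Igkv4-61 (15.7%), Igkv6-32 (9.63%), Igkv4-50 (8.54%), Igkv3-7 (8.34%) and Igkv4-55 (6.37%) among kappa segments. Ighv2-3 held 100% of 4 counts in PBS replicate 3, and its mean share was 24.2% in the PBS, 2.4% in the isotype and 10% in the anti–IL-4Rα group. Ighv5-6 had means of 15.8%, 4.17% and 5.52%, and Ighv1-18 of 0%, 11.9% and 11.5%, above both of them in each OVA-challenged group.

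Families moved with their leading segments. Igkv4 segments held 7.55% to 60.2% of kappa counts in the PBS group, 12.1% to 73.3% in the isotype group and 8.06% to 62.6% in the anti–IL-4Rα group. The Igkv6 family, 5 of whose 9 segments were members, held 12.5%, 9.51%, 84.7%, 13% and 9.69% in the anti–IL-4Rα libraries. Isotype replicates 1, 3, 4 and 5 were lower, at 2% to 3.13%, but isotype replicate 2 was at 17.4%, so the groups overlapped. Ighv8 segments, 2 of whose 16 were members, held 9.12% to 76.0% of heavy-chain counts in the isotype group. They held 0.315% to 1.90% in anti–IL-4Rα replicates 1 to 4 and 38.4% in replicate 5.

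Single segments were tested with edgeR's quasi-likelihood test across the 19006 genes that reached 10 counts in 5 or more libraries. Of the 41 members 19 passed this filter, and the other 22 were not tested. For isotype against PBS, 9 of the 19 were higher at adjusted p under 0.05, where 9.53% of all genes tested were called higher, and 0 were lower, where 7.49% of all genes were. At an unadjusted p under 0.05 the number was 15, all higher, but the share of all genes at that threshold was not computed. DESeq2 called 13 members higher and 0 lower, beside 4273 genes called higher or lower in all. The median log2 fold change of the 19 was 5.55, against −0.01 over all genes. Since a member scarce in PBS had to be high elsewhere to pass the filter, these figures are a description only.

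Ighv8-12 had 1 count in the whole PBS group. Its CPM was 0.265, 0.143, 7.55, 8.21 and 3.54 in the isotype libraries and 0.149, 0.0753, 1.51, 0.173 and 10.3 in the anti–IL-4Rα libraries. All 10 lay above the PBS libraries, and the isotype mean was at least 77.2 times the PBS floor of 3 counts per library. Its fitted log2 fold change for isotype against PBS was 9.49 ± 2.24 (edgeR adjusted p = 0.0134); without PBS replicate 2 the adjusted p was 0.0599. Ighv8-8, of the same family, was at 0.0817, 0.143, 0.269, 0.402 and 0.144 CPM in the isotype group against at most 1 count in PBS, and was called with a log2 fold change of 5.25 ± 1.39 (adjusted p = 0.0211). Leaving out PBS replicate 2 or 4 raised its adjusted p to 0.0507 and 0.0573.

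The Igkv4 family gave 3 calls. Igkv4-55 was at 7.72, 0.430, 2.56, 3.23 and 9.82 CPM in the isotype libraries and at 0.0678 or less in PBS, a difference of 7.52 ± 1.68 on the log2 scale (edgeR adjusted p = 0.0103). It stayed called when any of the 15 libraries was left out. In the anti–IL-4Rα libraries it was at 0.0213, 0.0452, 4.19, 0.0988 and 0.0236 CPM, so that replicate 3 alone lay within the isotype range, and the difference from isotype was not called (−2.37 ± 1.13, adjusted p = 0.160). Without anti–IL-4Rα replicate 3 it was (−6.62, adjusted p = 0.00215), and limma voom called it with all libraries (−5.61, adjusted p = 0.0129). Igkv4-50 was at 0.184, 0.726, 0.0841, 1.90 and 71.6 CPM in the isotype libraries and had 2 counts in all PBS libraries, and it was at 10.6, 2.46, 1.12, 0.889 and 0.260 CPM in the anti–IL-4Rα libraries. Its isotype mean was at least 292 times the PBS floor, and at least 14.2 times without isotype replicate 5; the fitted log2 fold change was 10.72 ± 2.58 (adjusted p = 0.0146, and 0.0556 without PBS replicate 1). Igkv4-61 was high in isotype replicates 3 and 4 only, at 2.36 and 21.9 CPM against 0.018 or less in the other isotype libraries and up to 0.124 in PBS. Its call (6.95 ± 2.10, adjusted p = 0.0363) was lost without isotype replicate 4 (adjusted p = 0.149) or 3 (0.0567) and without any of PBS replicates 1 to 5 (0.0720, 0.0768, 0.0612, 0.0756 and 0.0779). Against isotype, Igkv4-61 was not called with anti–IL-4Rα (1.67 ± 1.34, adjusted p = 0.398), but it was when isotype replicate 4 was left out (4.71, adjusted p = 0.0333).

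**Figure D5:**
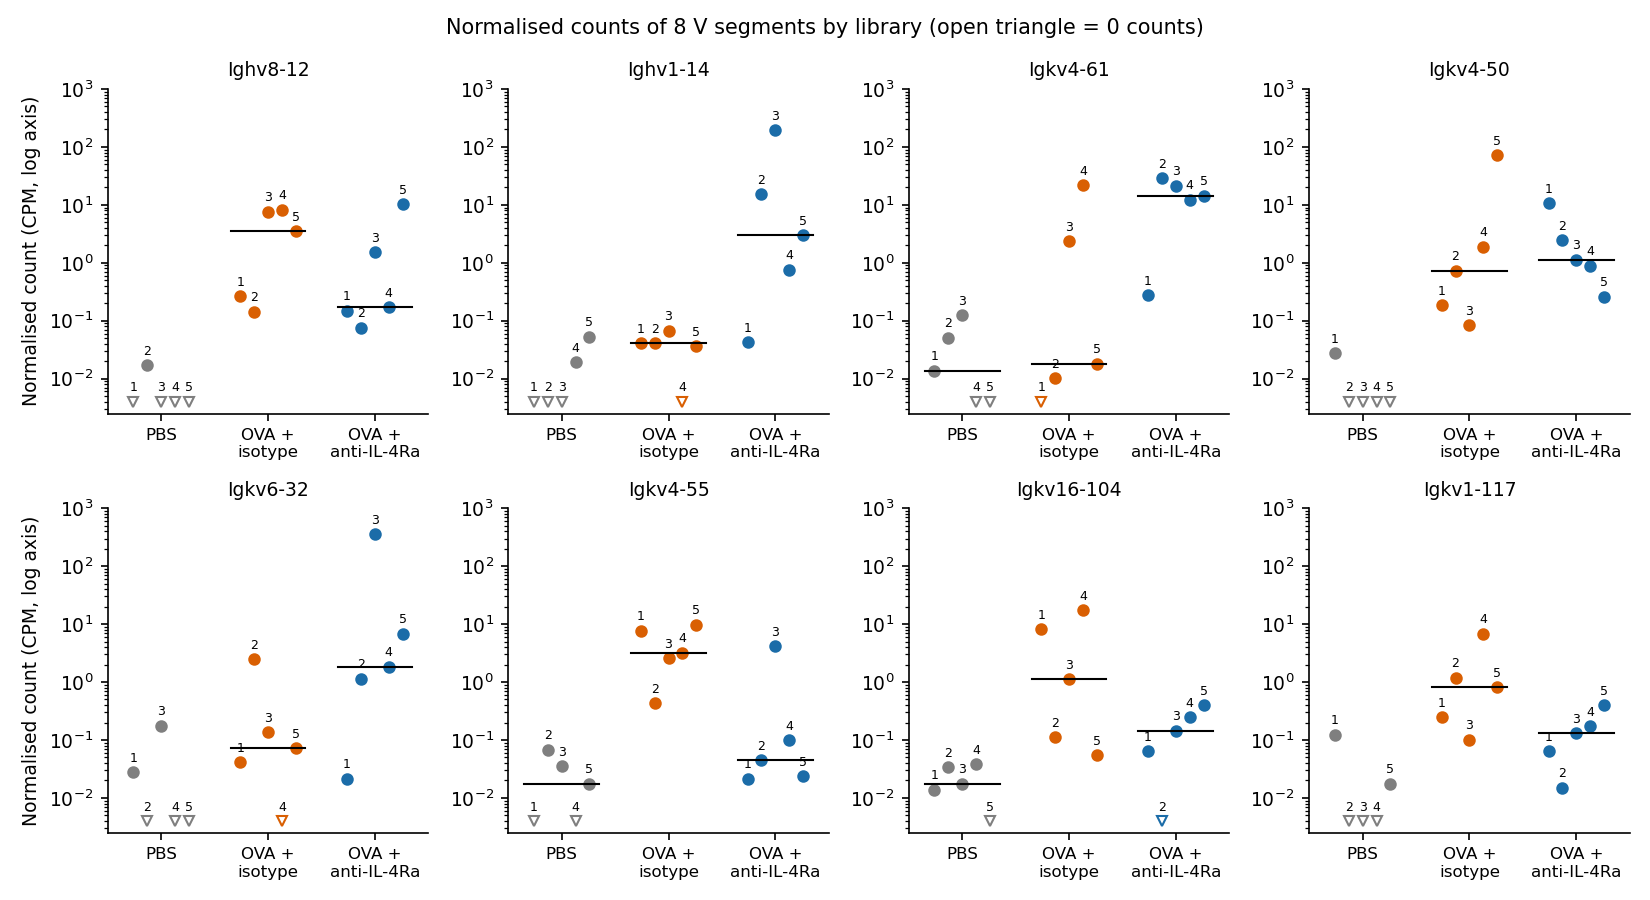
Normalised counts (CPM, log axis, open triangles for 0 counts) of 8 V segments by library in the 3 groups, with replicate numbers and group medians as bars, drawn where the median is above 0. Ighv8-12 and Igkv4-55 are above PBS in all 5 isotype libraries, Igkv4-61 is high in 4 of 5 anti–IL-4Rα libraries, and Igkv6-32 and Ighv1-14 peak in anti–IL-4Rα replicate 3.

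The other 4 calls were kappa segments. Igkv16-104, the only segment of its family in the table and the member least like any other V segment, was at 8.23, 0.113, 1.13, 17.5 and 0.0541 CPM in the isotype libraries against 0.0382 or less in PBS (log2 fold change 7.91 ± 1.65, edgeR adjusted p = 0.00794). Igkv3-7 was at 0.490, 5.41, 0.0337, 0.716 and 3.86 CPM against 0 to 0.0955 (5.62 ± 1.31, adjusted p = 0.0126), and isotype replicate 3 lay within the PBS range. Both calls held whichever library was left out, but limma voom made neither (adjusted p = 0.111 for Igkv16-104 and 0.172 for Igkv3-7). Igkv1-117 was at 0.245, 1.19, 0.101, 6.86 and 0.812 CPM against 0 to 0.124 (5.74 ± 1.28, adjusted p = 0.0103) and stayed called in the 10 leave-one-out fits in which it passed the filter. Igkv6-15 was at 0.123, 0.0102, 0.0168, 1.22 and 2.63 CPM, with 1 count in all of PBS (7.17 ± 1.94, adjusted p = 0.0237); this call was lost without PBS replicate 2, 4 or 5 (adjusted p = 0.0561, 0.0762 and 0.0542).

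For anti–IL-4Rα against isotype, which uses the same isotype libraries, 2 of the 19 members tested were higher, where 6.73% of all genes tested were called higher, and 2 were lower, where 8.13% were. The median log2 fold change was 0.48 against 0.01 over all genes, and 10 of the 19 values were positive. The 4 calls dropped to 1 without isotype replicate 5 or without replicate 1 or 2 of the anti–IL-4Rα group, and to 2 without isotype replicate 1, 2 or 3 or without replicate 4 of the anti–IL-4Rα group. Over all genes, 2826 were called with every library and 1060 to 1436 in the fits with 1 member call. In the fits with 2 member calls, 882 to 1164 genes were called, except for 3811 without isotype replicate 1.

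Igkv6-32 was at 0.0213, 1.14, 357, 1.83 and 6.80 CPM in the anti–IL-4Rα libraries and at 0.0408, 2.49, 0.135, 0 and 0.0722 CPM in the isotype libraries. The log2 difference was 6.84 ± 1.92 (edgeR adjusted p = 0.0324), and without anti–IL-4Rα replicate 3 it was 2.04, with adjusted p = 0.249. The call was also lost without isotype replicate 3 or 5 (adjusted p = 0.0804 and 0.0683). Igkv12-41 was high in 2 libraries, at 8.01 and 8.30 CPM in anti–IL-4Rα replicates 1 and 3, against 0.196 or less in the other 3 and 0 to 0.289 in the isotype group (4.73 ± 1.42, adjusted p = 0.0413). It passed the filter in 10 leave-one-out fits and lost its call in 6 of them, without PBS replicate 2, 3 or 4 (adjusted p = 0.0515, 0.0505 and 0.0526) and without isotype replicate 1, 3 or 4 (0.0553, 0.0933 and 0.0626).

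The segments that were lower with anti–IL-4Rα were both high in the isotype group against PBS. Igkv16-104 was at 0.0639, 0, 0.146, 0.247 and 0.401 CPM in the anti–IL-4Rα libraries, which overlapped with the low end of the isotype range (log2 difference −5.05 ± 1.31, edgeR adjusted p = 0.0254). Its call was lost without anti–IL-4Rα replicate 1, 2 or 4 (adjusted p = 0.0643, 0.0560 and 0.0564). Igkv1-117 was at 0.0639, 0.0151, 0.131, 0.173 and 0.401 CPM (−3.62 ± 1.08, adjusted p = 0.0398). It passed the filter in 10 leave-one-out fits and stayed called in 6. The call was lost without anti–IL-4Rα replicate 1, 2, 3 or 4 (0.0896, 0.0839, 0.0512 and 0.0802), and without anti–IL-4Rα replicate 5 the segment was not tested.

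For anti–IL-4Rα against PBS, 6 members were higher, where 2.28% of all genes tested were called higher, and 0 were lower, where 1.44% were. At an unadjusted p under 0.05 the number was 15, again without a share of all genes to set it against. DESeq2 called 11 members higher and 0 lower, beside 1966 genes called higher or lower in all. The 6 were Igkv6-32 (log2 fold change 10.76 ± 2.57, edgeR adjusted p = 0.0386), Ighv8-12 (8.78 ± 2.28, 0.0488), Igkv4-61 (8.62 ± 2.13, 0.0414), Igkv3-10 (7.19 ± 1.66, 0.0360), Igkv12-41 (6.58 ± 1.68, 0.0458) and Igkv3-7 (6.2 ± 1.32, 0.0299). Igkv4-61 was at 0.277, 28.8, 21.4, 12.3 and 14.5 CPM in the anti–IL-4Rα libraries against 0 to 0.124 in PBS, with no overlap. Igkv3-7 did not overlap either, at 3.34, 0.512, 1.54, 1.16 and 9.35 CPM. Igkv3-10 was at 0.788, 1.07, 0, 0.0741 and 9.61 CPM and overlapped with the PBS libraries. These calls depended on single libraries, as did calls over all genes. Without PBS replicate 1, 2, 3 or 4 or without anti–IL-4Rα replicate 1 or 5, 0 members were called. In these fits 15 to 19 members were tested, and 82 to 265 genes were called higher or lower in all, against 707 with every library. An unadjusted p under 0.05 was reached by 12 to 15 members. Here too a member scarce in PBS had to be high elsewhere to pass the filter, so these counts are a description only. Leaving out any of PBS replicate 5, replicate 3 of the isotype group and replicate 2 of the anti–IL-4Rα group gave 2 calls, and leaving out anti–IL-4Rα replicate 3 gave 7.

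Ighv1-14, the heavy-chain segment with the most counts, was not tested in the main fit because it reached 10 counts in 4 libraries only. With the filter lowered to 3 libraries, and with no filter, edgeR called it for anti–IL-4Rα against isotype and against PBS. It was at 0.0426, 15.4, 193, 0.766 and 3.02 CPM in the anti–IL-4Rα libraries, 0 to 0.0673 CPM in the isotype libraries and 0 to 0.0527 CPM in PBS. All anti–IL-4Rα libraries but replicate 1 lay above all isotype libraries, and its highest library held 91.7% of its counts.

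The members near the threshold were small. Igkv4-86, Ighv2-6 and Igkv17-127 were just inside, with counts in the third highest library of 10.005, 10.038 and 10.476 and highest counts of 291.9, 65.9 and 55.7. Igkv10-94, Igkv4-68 and Igkv8-24 were just outside, with counts in the third highest library of 9.90, 9.83 and 9 and highest counts of 17.9, 11.6 and 34.0.

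Genes of plasma cells moved with the V totals, in part. Jchain, which links IgA and IgM into polymers, was at 0.843 to 2.72 CPM in the PBS group, 8.67 to 60.5 in the isotype group and 18.3 to 185 in the anti–IL-4Rα group, highest in anti–IL-4Rα replicate 3. It rose against PBS in the isotype group (log2 fold change 3.97 ± 0.76, edgeR adjusted p = 0.00540) and in the anti–IL-4Rα group (5.29 ± 0.80, adjusted p = 0.00928). Mzb1, a chaperone of antibody assembly, rose in the same comparisons by 2.65 ± 0.58 and 3.51 ± 0.59 on the log2 scale (adjusted p = 0.00982 and 0.0148). Of 12 plasma cell genes, 4 rose and 0 fell in the isotype group against PBS, 5 rose and 0 fell in the anti–IL-4Rα group against PBS, while for anti–IL-4Rα against isotype 2 rose (Xbp1 and Txndc5) and Prdm1 fell. In the same order, 9.53%, 2.28% and 6.73% of all genes tested rose and 7.49%, 1.44% and 8.13% fell. Sdc1, a surface marker of plasma cells that epithelium also makes, was at 569 to 804 CPM in all libraries, and the summed level of the list was 1103 to 1206, 1095 to 1333 and 1243 to 1570 CPM in the PBS, isotype and anti–IL-4Rα groups. It was highest in anti–IL-4Rα replicates 4, 5 and 1, at 1570, 1545 and 1442 CPM, which were also the highest in the lacrimal gland genes, at 125060 to 165390 CPM, and was 1359 CPM in replicate 3, which had the highest V total.

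Calls among B cell genes stayed close to the shares over all genes tested. These shares were 9.53% higher and 7.49% lower for isotype against PBS and 6.73% and 8.13% for anti–IL-4Rα against isotype. For anti–IL-4Rα against PBS they were 2.28% and 1.44%. Ms4a1 (CD20) and Cd79a, parts of the B cell surface, were at 0.105 to 1.34 CPM in the PBS group and 0.286 to 3.58 CPM in the OVA-challenged groups, and their groups overlapped. Of 12 genes, 11 were tested: Cd22 rose and Blk fell for isotype against PBS, Cd22 fell for anti–IL-4Rα against isotype, and 0 were called by edgeR in the comparison of anti–IL-4Rα with PBS. The summed level of the list was 12.6 to 17.1, 16 to 20.8 and 12.8 to 29.0 CPM. Genes of V(D)J recombination, a step of the bone marrow, were at 0.124 to 0.791 CPM in sum, and Rag2 had no count. Of 5 germinal center genes tested, Gcsam rose for isotype against PBS and Bcl6 rose for anti–IL-4Rα against PBS. Of 10 genes of lymphoid stroma and homing, Ccr7, a receptor for homing to lymph nodes, rose and Cxcl13, a B cell chemokine, fell for isotype against PBS, while with anti–IL-4Rα against isotype Ccr7 fell and Cxcl13 and Tnfsf13 (APRIL, a plasma cell survival factor) rose.

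Tissue content differed between libraries. The 10 lacrimal gland genes summed to 136 to 54882 CPM in the PBS group, 167 to 34740 in the isotype group and 1366 to 165390 in the anti–IL-4Rα group. Anti–IL-4Rα replicates 1, 2, 4 and 5 were above all other libraries, although of 9 genes tested only Aqp5, a water channel, rose, both against isotype and against PBS. Of all genes tested, 6.73% and 2.28% rose in these comparisons. Pigr, the receptor that carries IgA across epithelium, rose in the anti–IL-4Rα group against isotype (log2 difference 1.38 ± 0.37, edgeR adjusted p = 0.0291). In the PBS group the library with the most lacrimal RNA, replicate 5 at 54882 CPM, had the lowest V total, 0.624 CPM. In the isotype group the library with the least, replicate 2 at 167 CPM, had a V total of 16.8 CPM, close to the group's lowest of 16.45 CPM. Anti–IL-4Rα replicate 3 had the highest V total and, at 1366 CPM, the lowest lacrimal level of its group. Lacrimal content differed between the groups along with treatment, so the 2 cannot be told apart here. The part of gland tissue in the V totals was not tested. The 4 skeletal muscle genes fell in the isotype group against PBS, where 7.49% of all genes tested did. Of the 7 conjunctival epithelium genes 1, Pax6, was called, higher with anti–IL-4Rα against isotype, where 6.73% of all genes were. The defining genes Krt4, Krt13 and Muc5ac were at 516 CPM or more in every library.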

How the data were processed

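RNA from the conjunctiva of 15 mice was sequenced as 90-base pairs with a polyA-selected, stranded kit. The authors deposited estimated counts per gene, made in Omicsoft Array Studio from reads with a quality score of at least 20 that mapped uniquely to the mouse B38 genome with an Ensembl.R100 gene model; the counting method and software version are not given in the sources used here. Of 1149 V segment values above 0, 382 were not whole, and counts were rounded for testing. The study's methods mention 2 outliers without naming them in the sources used here, so all 15 libraries entered. Symbols, coordinates and transcripts came from GENCODE M21 (55141 identifiers matched, 346 did not).

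CPM used TMM-scaled library sizes; totals and shares used the deposited values and single-segment CPM the rounded counts. One edgeR (4.0.16, R 4.3.3) quasi-likelihood model over the 3 groups, with no covariate, tested genes with 10 counts in 5 or more libraries, with Benjamini-Hochberg adjustment over all of them and a threshold of 0.05; the scripts were tested on simulated data. DESeq2 (1.42.0), limma voom (3.58.1), other filters and size factors, a replicate block and leaving out each library were tried as alternatives. Replicate numbers did not pair the libraries: of 15 same-number pairs, 4 had a correlation of deviations over 0.1 (range −0.385 to 0.454). V exons were aligned with Biopython (1.88) and mafft. Named segments were those leading their chain in a library, those with the highest mean shares (5 heavy-chain, 5 kappa, 3 lambda), those called in a comparison, and 3 on each side of the membership threshold. Members, lists and alternatives were chosen with earlier results of these data known. Lists were genes of plasma cells, B cells, germinal centers, lymphoid stroma, V(D)J recombination, constant regions, lacrimal gland, conjunctival epithelium and skeletal muscle, and Pigr. The comparisons share libraries, so their results are not independent.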

Additional observations from a re-analysis of the deposited data

Results flagged for a closer look

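In groups of 5 libraries, a value was singled out where the highest or lowest library lay far from the nearest of the other 4, relative to the range of the group. Chance flags about 1 in 20 groups where values are normally distributed; these CPM are skewed and totals overlap with their segments, and the rate for such values was not computed. In all, 76 groups were examined and 29 values stood apart, 20 of them of single segments and 9 in anti–IL-4Rα replicate 3.

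That library had a member V total of 641.1 CPM, with the next at 66.27, a heavy-chain total of 223.1 CPM (next 20.08), a kappa total of 412.4 CPM (next 50.08) and a lambda total of 5.582 CPM (next 0.751). Among its segments, Igkv6-32 at 357.1 CPM (next 6.8), Ighv1-14 at 193.4 CPM (next 15.35), Ighv1-18 at 16.23 CPM, Igkv4-55 at 4.193 CPM and Ighv14-3 at 2.519 CPM stood apart. In other anti–IL-4Rα libraries this held for Ighv8-12 at 10.27 CPM and Igkv3-10 at 9.615 CPM in replicate 5, Igkv4-50 at 10.61 CPM in replicate 1 and Igkv4-63 at 1.926 CPM in replicate 4.

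In the isotype group, replicate 4 stood apart in its heavy-chain total of 25.4 CPM and in Igkv4-61 at 21.93 CPM, Ighv1-18 at 13.47 CPM (next 0.1227) and Igkv1-117 at 6.86 CPM. Replicate 5 did so in Igkv4-50 at 71.63 CPM (next 1.903), in a leading kappa segment with 69.39% of kappa member counts (next 37.92%) and in a lambda total of 2.345 CPM. The remaining isotype values were Igkv4-63 at 8.557 CPM in replicate 1, Igkv6-32 at 2.485 CPM and Ighv14-3 at 0.4792 CPM in replicate 2, and a lambda share of 8.329% of light-chain member counts in replicate 3 (next 2.222%). In the PBS group, replicate 1 held 27.01 kappa V counts per 100 Igkc counts (next 37.33), and Igkv1-117 at 0.1245 CPM and Igkv12-41 at 0.1224 CPM there and Igkv6-32 at 0.1769 CPM and Ighv2-3 at 0.07075 CPM in replicate 3 rest on 10 counts or fewer.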

How the results depend on the processing

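Of the alternatives that kept all libraries, 35 values stayed within the limits set for a change (1 SD between libraries, or 1.5 times for a count of calls) and 17 moved; of those that left out 1 library, 118 stayed and 17 moved. With wide groups 1 SD is a loose limit: the isotype median V total of 29.7 CPM ran from 23.27 to 59.58 and the PBS median lambda share of 8.455% from 8.29% to 19.26% when 1 library was left out. Counting all V segments instead of the members moved the median V total of the PBS group from 1.423 to 2.493 CPM. It moved the median effective number of heavy-chain segments from 2.5 to 10.02 (PBS), from 6.159 to 17.61 (isotype) and from 2.723 to 6.554 (anti–IL-4Rα), and the median share of the leading heavy-chain segment from 54.55% to 21.43% (PBS) and from 69.29% to 40.66% (anti–IL-4Rα). The median effective number of kappa segments moved from 7.91 to 14.79 (PBS) and from 5.055 to 9.261 (anti–IL-4Rα). The order of group medians turned in 3 places: over members the heavy-chain effective number was lower in PBS than in anti–IL-4Rα, the leading heavy-chain share higher in PBS than in isotype (41.25%, and 26.42% over all segments) and the kappa effective number higher in isotype (5.821, and 6.253 over all segments) than in anti–IL-4Rα, each the other way over all segments. Over members, the inverse Simpson index gave 2.854 for kappa in the anti–IL-4Rα group.

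The numbers of members called were 9, 4 and 6 for isotype against PBS, anti–IL-4Rα against isotype and anti–IL-4Rα against PBS. DESeq2 called 2 in the comparison of anti–IL-4Rα with isotype and 11 in that with PBS, and gave an adjusted p to 16 and 15 of the 19 members. Limma voom called 5, 1 and 2. Lowering the filter to 3 libraries, which tests all 41, gave 9 for anti–IL-4Rα against isotype and 10 against PBS. Calls over all genes also differed, at 3235, 2826 and 707 in the main fit and 4033, 3873 and 2318 with voom. For anti–IL-4Rα against isotype and against PBS they were 4023 and 1966 with DESeq2, and 2803 and 680 with the lowered filter. With a replicate block the numbers were 9, 1 and 4, beside 2115, 1859 and 312 calls over all genes. For isotype against PBS, voom called Ighv8-12, Ighv8-8, Igkv1-117, Igkv4-55 and Iglv1. None of the 4 members called between anti–IL-4Rα and isotype was called there by voom, whose call was Igkv4-55, or with the block, whose call was Igkv8-30. Leaving out 1 library gave 5 (without PBS replicate 2) to 11 (without isotype replicate 1) calls for isotype against PBS, 1 to 4 for anti–IL-4Rα against isotype and 0 to 7 for anti–IL-4Rα against PBS. In these fits 13 to 19 members passed the filter. Calls over all genes moved as well. For anti–IL-4Rα against PBS they were 707 with all libraries and 82 to 265 in the fits with 0 member calls. They were 2029 without anti–IL-4Rα replicate 3, the fit with 7 member calls. The cause was not tested. Depth limits the PBS group most: its libraries held 14 to 59 heavy-chain and 53 to 181 kappa V counts.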
